A study of Homo sapiens with 6 samples.

Results

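The genes described here are 10 members of the YAP/TEAD pathway and its targets, chosen by symbol from a table of 26364 gene symbols. They are the coactivators YAP1 and WWTR1 (which encodes TAZ), the DNA-binding partners TEAD1 and TEAD4, the transcriptional targets CYR61, CTGF and ANKRD1, and the pathway regulators AMOTL2, AJUBA and LATS2. CYR61 and CTGF are the older symbols of CCN1 and CCN2. All 10 were found in the table, and all 10 passed the filter on low values, a mean of at least 0.5 FPKM over the libraries. FPKM are fragments per kilobase of transcript, scaled for each library. RNAseq was performed in A673/TR/shEF, a derivative of the Ewing sarcoma cell line A673 that carries the EWSR1::FLI1 fusion, a tetracycline repressor and a doxycycline-inducible shRNA against the chimeric mRNA. In the EWSR1::FLI1 high group 3 samples were left untreated, and in the EWSR1::FLI1 low group 3 samples received 1 µg/mL doxycycline for 72 h. Cells of both groups carried the repressor and the shRNA construct and were cultured in 10% FBS with blasticidin and zeocin. Doxycycline was present only in the EWSR1::FLI1 low group, so an effect of the drug and an effect of the knockdown cannot be told apart. The sample titles number the replicates as experiments, whereas the design text calls them independent clones, so the p-values measure the spread between these samples, which may be technical.

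YAP and TAZ are transcriptional coactivators that do not bind DNA by themselves and reach their target genes mainly through the TEAD transcription factors. In the Hippo pathway, the kinases MST1/2 (STK4 and STK3) activate the kinases LATS1/2, which phosphorylate YAP and TAZ and keep them out of the nucleus. CYR61, CTGF and ANKRD1 are the target genes most often used as a readout of YAP/TAZ-TEAD activity, while LATS2 and AMOTL2 are both targets and inhibitors of the pathway. Localization and phosphorylation of YAP and TAZ are not measured by RNAseq, which gives the mRNA level of each gene.

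The knockdown was examined first. FLI1, which gives the 3′ part of the chimeric mRNA, was between 11.3 and 14.2 FPKM in EWSR1::FLI1 high cells and between 2.91 and 4.29 FPKM in EWSR1::FLI1 low cells (log2 fold change -1.57, adjusted p = 0.000676, limma). NR0B1, a gene activated by the fusion, had -2.56 (adjusted p = 0.00172), and EWSR1, which also has an intact allele, -0.50 (adjusted p = 0.159, and -0.29 without EWSR1::FLI1 low replicate 1). Ewing sarcoma markers were present in the untreated cells, with CD99 between 118 and 144 FPKM and STEAP1 between 148 and 155 FPKM. LIPI was between 194 and 204 FPKM there, CCND1 between 375 and 394 FPKM, and NKX2-2 between 3.92 and 5.77 FPKM. Upon knockdown STEAP1, LIPI, CCND1 and NKX2-2 were lower at an adjusted p under 0.01 (log2 fold changes -2.18, -2.44, -1.87 and -1.19, limma). CD99 did not reach this limit (-0.53, adjusted p = 0.067, limma). Of 9 markers of haematopoietic, endothelial and epithelial cells, PTPRC, CD3E, CD14, PECAM1, CDH5, VWF, EPCAM, CDH1 and KRT19, the highest value in any library was 1.56 FPKM, and their summed level was between 1.79 and 3.09 FPKM in EWSR1::FLI1 high cells and between 3.07 and 4.37 FPKM in EWSR1::FLI1 low cells. KRT19 was listed at 0 in EWSR1::FLI1 high replicate 2, and CD14 in EWSR1::FLI1 high replicate 3. The part of these markers in the results was not tested. Reads on genes numbered from 6980361 to 16658933 per library. EWSR1::FLI1 low replicate 1 stood apart from the other libraries, with FPKM values that summed to 255956 against 334614 to 366060, and values without it are given where it changes the call of a named gene or moves a value by more than 1.5 times.

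The sequences upstream of the start sites of CTGF, ANKRD1 and YAP1 are shown first, since CTGF and ANKRD1 are classical TEAD targets that increased upon knockdown, whereas YAP1 holds the same motif and did not pass the test. RefSeq windows of 300 bases, from 250 bases before the start site to 50 after it (GRCh38.p14, 1 start site per gene), were matched for 7 of the 10 genes. CYR61, TEAD1 and TEAD4 were not matched. The letters searched, on both strands, were GGAATG for TEAD, TGANTCA for AP-1 and GGAAGGAA as a short GGAA repeat. EWSR1::FLI1 is known to bind GGAA repeats, and whether a repeat this short is bound was not tested. GGAATG and GGAAGGAA share the letters GGAA, the core of ETS factor motifs. The 250 bases before each start site are printed 5′ to 3′ on the strand of the gene, and capitals mark matches to any of the 3 motifs.

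CTGF (chr6:131951373-131951622, minus strand): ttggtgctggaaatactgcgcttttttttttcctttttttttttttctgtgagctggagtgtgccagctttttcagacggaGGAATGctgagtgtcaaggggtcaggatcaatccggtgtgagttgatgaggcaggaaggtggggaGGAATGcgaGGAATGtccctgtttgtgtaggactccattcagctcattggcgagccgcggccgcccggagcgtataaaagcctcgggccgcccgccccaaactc

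ANKRD1 (chr10:90921088-90921337, minus strand): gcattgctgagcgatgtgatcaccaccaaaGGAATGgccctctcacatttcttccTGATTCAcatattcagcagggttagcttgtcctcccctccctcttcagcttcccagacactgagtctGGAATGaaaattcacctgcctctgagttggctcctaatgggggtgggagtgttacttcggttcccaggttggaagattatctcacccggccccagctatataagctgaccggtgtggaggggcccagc

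YAP1 (chr11:102110197-102110446, plus strand): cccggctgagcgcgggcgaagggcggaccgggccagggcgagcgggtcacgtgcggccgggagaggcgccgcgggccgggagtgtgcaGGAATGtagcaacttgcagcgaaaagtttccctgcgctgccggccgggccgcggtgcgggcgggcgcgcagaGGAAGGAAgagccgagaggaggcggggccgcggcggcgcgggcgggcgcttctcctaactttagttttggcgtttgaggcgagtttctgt

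In the CTGF window the TEAD letters were found at 3 places, beginning at positions -169, -104 and -95 from the start site. ANKRD1 held them at 2 places, positions -220 and -128, with an AP-1 match between them and a GGAA repeat on the minus strand at position 18. YAP1 held them once, at position -162, together with a GGAA repeat on each side of the start site, and LATS2 held them once, within the 50 bases after it. In all, 4 of the 7 matched windows held the TEAD letters, against 4928 of 35116 RefSeq windows of the same length. For AP-1 the count was 1 of 7 (7.71% of all windows), and for the GGAA repeat it was 2 of 7 (3.67% of all windows). These matches describe letters in a window and not bound sites.

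Where values of single libraries are given, they follow the order of replicates 1, 2 and 3. The change of the 10 genes upon knockdown was tested with limma on log2(FPKM + 1) in a fit of all 15504 genes that passed the filter, and a gene was called at an adjusted p under 0.01. Log2 fold changes refer to log2(FPKM + 1), a scale on which changes of weakly expressed genes come out too small. Exceptions are limma-voom values, which refer to recovered reads, and the WWTR1 to YAP1 ratio, which was taken from FPKM. As the libraries are from bulk cultures, more cells expressing a gene and more RNA per cell cannot be told apart. CYR61, CTGF, ANKRD1 and WWTR1 rose, so 4 of the 10 genes were called higher, against 4.51% of all genes tested. The 10 genes were chosen with earlier results of these data known, so shares of all genes are given for description only. None was called lower, against 3.37% of all genes tested. At an unadjusted p under 0.05, 7 of the 10 were higher (15.6% of all genes tested) and 1, TEAD4, was lower (18.7% of all genes tested). With limma-voom on recovered reads, 6 were called higher and 0 lower, against 8.03% and 7.39% of all genes tested. The median log2 fold change of the 10 genes was 0.72, and that of all genes tested was -0.05. The groups did not overlap in any of the 10 genes. In 9 of them each EWSR1::FLI1 low library was higher than each EWSR1::FLI1 high library (17.5% of all genes tested), and in 1 of them, TEAD4, each was lower (23.6% of all genes tested).

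**Figure D1:**
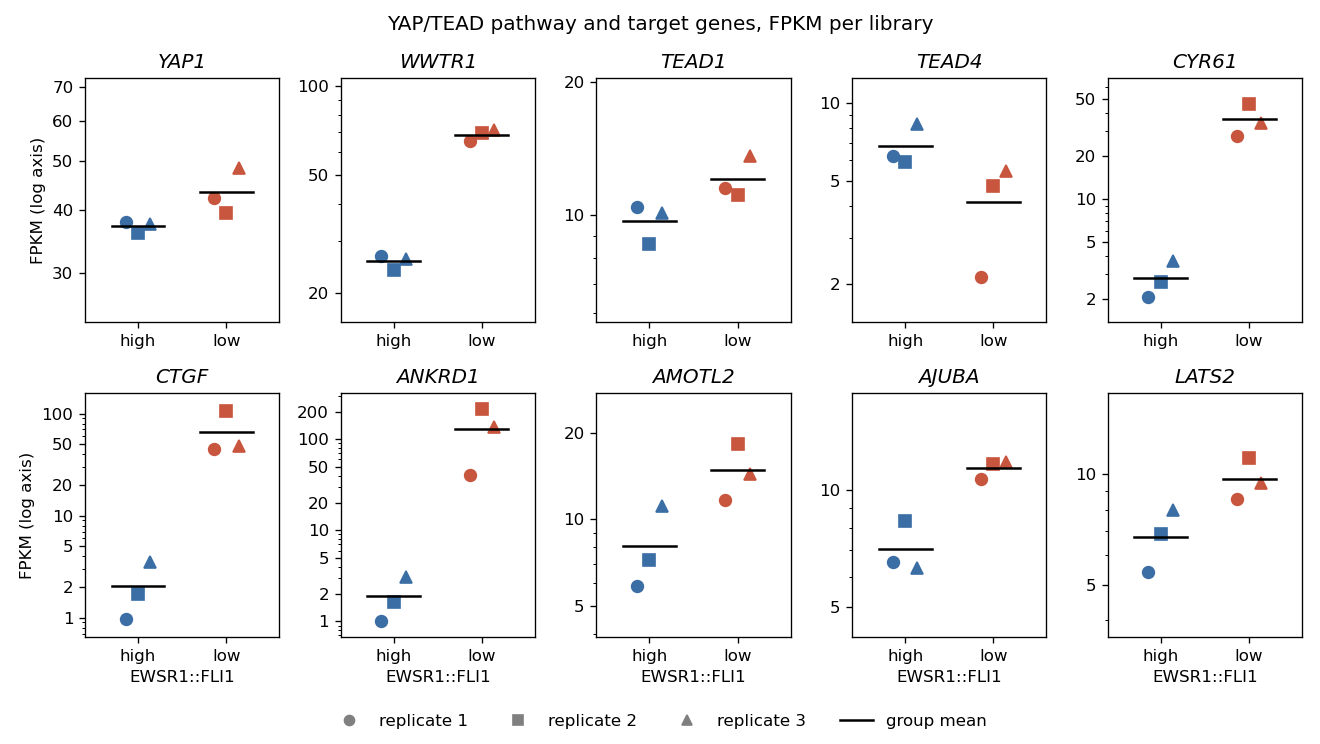
FPKM of the 10 genes (log axis, a separate range in each panel) in the 3 EWSR1::FLI1 high and the 3 EWSR1::FLI1 low libraries, with symbols for the replicates and a line for the group mean. CYR61, CTGF and ANKRD1 are below 4 FPKM in each high library and above 27 FPKM in each low library, WWTR1 is more than 2 times higher, and the groups of YAP1, TEAD1 and LATS2 lie close to each other without overlapping.

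Of the coactivators, WWTR1 increased and YAP1 was not called. WWTR1 (ENSG00000018408, chromosome 3, 149235022 to 149454501, minus strand, GRCh37) was found at 26.7, 23.8 and 26.0 FPKM without doxycycline and at 65.4, 69.4 and 70.8 FPKM with doxycycline. The 3 libraries of each condition lay close to each other, and the gap between conditions was wider than either range. The ratio of the means was 2.69, and limma gave 1.39 as log2 fold change (SE 0.17, adjusted p = 0.000785). Leaving out EWSR1::FLI1 high replicate 2 ended the call, with the log2 value at 1.35 and its adjusted p at 0.0111. Omitting EWSR1::FLI1 low replicate 1 gave 1.43 and an adjusted p of 0.000261. An antisense gene, WWTR1-AS1, overlaps WWTR1 and was listed at no more than 0.794 FPKM in any library.

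YAP1 (ENSG00000137693, chromosome 11, 101981178 to 102104155, plus strand, GRCh37) was found at 37.9, 36.1 and 37.5 FPKM without doxycycline and at 42.3, 39.5 and 48.6 FPKM with doxycycline. Untreated cells therefore already had YAP1 mRNA at a mean of 37.2 FPKM, above the mean level of 84.8% of the genes tested. The difference of 0.22 on the log2 scale did not reach significance (95% interval from -0.17 to 0.61, adjusted p = 0.419, limma).

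Since FPKM is scaled to gene length, the level of WWTR1 can be set beside that of YAP1. The ratio of WWTR1 to YAP1 was 0.704, 0.660 and 0.692 without doxycycline and 1.55, 1.75 and 1.46 with doxycycline. In FPKM, YAP1 was thus the higher of the pair in each untreated library and WWTR1 in each doxycycline-treated library. FPKM adjusts between genes for length only, so the order of the pair is less certain than the change of the ratio. The mean ratio was 0.685 ± 0.0228 (SD, n = 3) and 1.59 ± 0.152 (SD, n = 3). An exact permutation test of the ratio, two-sided, gave p = 0.1, which is the minimum for 3 samples against 3. On the log2 scale the difference was 1.21. The summed FPKM of both genes went from 62.6 ± 2.48 to 112 ± 6.45 (SD, n = 3 in each group).

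**Figure D2:**
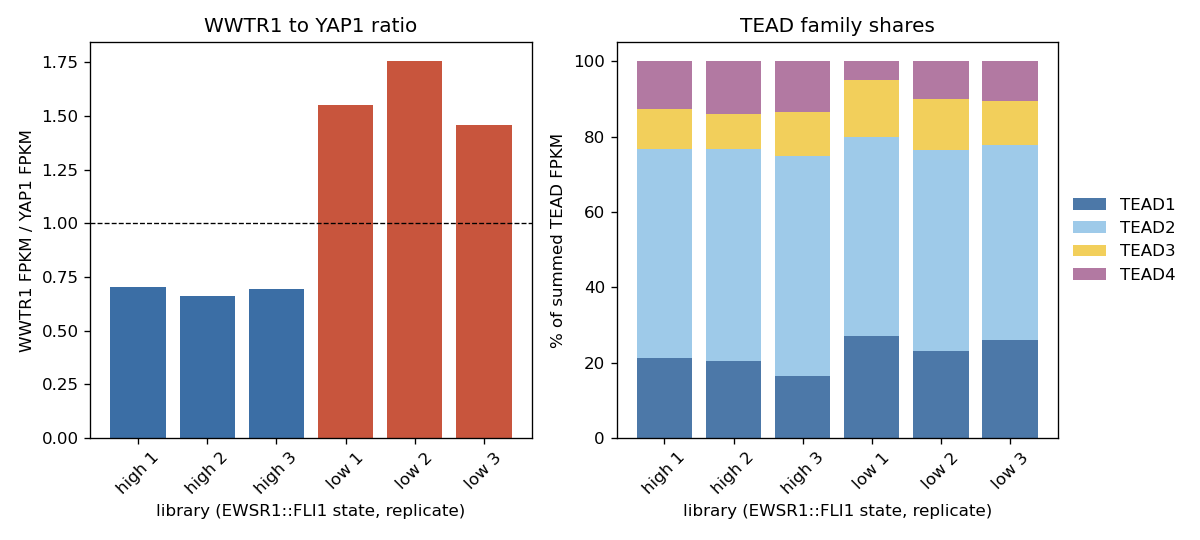
Left, FPKM of WWTR1 divided by FPKM of YAP1 in each library, with a dashed line at equal levels. Right, the share of TEAD1, TEAD2, TEAD3 and TEAD4 in their summed FPKM in each library (%). The ratio lies below 1 in the 3 high libraries and above 1 in the 3 low libraries, TEAD2 holds over 50% of the TEAD sum in all 6 libraries, and the TEAD4 share is smaller in each low library.

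The TEAD factors, which bring YAP and TAZ to DNA, were not called in either direction. TEAD1 (ENSG00000187079, chromosome 11, 12695968 to 12966284, plus strand, GRCh37) was found at 10.4, 8.59 and 10.1 FPKM without doxycycline and at 11.5, 11.1 and 13.6 FPKM with doxycycline. The lowest doxycycline-treated library was only slightly above the highest untreated library, and the log2 fold change of 0.29 was not significant (95% interval from -0.10 to 0.68, adjusted p = 0.278, limma). The small RNA gene SCARNA16 lies on the opposite strand within TEAD1 and was listed at 13.7 to 47.6 FPKM, and whether reads were exchanged between these genes was not tested.

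TEAD4 (ENSG00000197905, chromosome 12, 3068496 to 3149842, plus strand, GRCh37) had the opposite sign. It was at 6.26, 5.92 and 8.30 FPKM without doxycycline and at 2.13, 4.80 and 5.46 FPKM with doxycycline, where 41, 85 and 184 reads were counted. Replicate 1 of the EWSR1::FLI1 low group was far below the other libraries of its condition. The log2 fold change was -0.66 (95% interval from -1.29 to -0.04, adjusted p = 0.127, limma), and it was -0.34 with an adjusted p of 0.197 without that library.

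The remaining family members give the context of these levels. TEAD2 was the most abundant, with 23.7 to 35.6 FPKM in EWSR1::FLI1 high libraries and 22.6 to 27.1 FPKM in EWSR1::FLI1 low libraries (log2 fold change -0.18, adjusted p = 0.58, limma, and -0.11 without EWSR1::FLI1 low replicate 1). TEAD3 was at 3.90 to 7.08 FPKM and 6.18 to 6.56 FPKM (log2 fold change 0.23, adjusted p = 0.459, limma). In FPKM the groups of both genes overlapped. The summed FPKM of the 4 TEAD genes was 50.8 ± 9.63 in EWSR1::FLI1 high and 47.7 ± 4.83 upon knockdown (SD, n = 3 per group, exact permutation test, two-sided, p = 0.7). Within this sum the TEAD1 share was 19.4 ± 2.47% and 25.4 ± 2.01%, and the TEAD4 share was 13.5 ± 0.679% and 8.47 ± 3.02% (SD, n = 3 in each group). The TEAD2 share was 56.6 ± 1.45% and 52.6 ± 0.783%, and that of TEAD3 10.5 ± 1.16% and 13.5 ± 1.59% (SD, n = 3 in each group). The groups did not overlap in any of the 4 shares (exact permutation test, two-sided, p = 0.1 for each, the smallest possible). The shares are parts of the same sum, so these are not 4 separate results. The TEAD4 share differed by -4.99 percentage points, and by -3.25 without EWSR1::FLI1 low replicate 1.

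The classical target genes had the largest changes among the 10. ANKRD1 (ENSG00000148677, chromosome 10, 92671853 to 92680844, minus strand, GRCh37), which encodes the cardiac ankyrin repeat protein, a stretch-responsive nuclear and sarcomeric protein, was at 1.01, 1.65 and 3.07 FPKM without doxycycline. With doxycycline it was at 40.5, 215 and 136 FPKM. The lowest doxycycline-treated library was therefore over 10 times above the highest untreated library, although the treated libraries themselves differed widely. The ratio of the means was 68.2, and limma gave 5.26 as log2 fold change (SE 0.54, adjusted p = 0.000385). It was 5.94 without EWSR1::FLI1 low replicate 1 (adjusted p = 4.83e-05, limma).

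CTGF (ENSG00000118523, chromosome 6, 132269316 to 132272512, minus strand, GRCh37) encodes a secreted matricellular protein of the CCN family that binds integrins and growth factors. It was at 0.976, 1.71 and 3.53 FPKM without doxycycline and at 45.2, 106 and 48.2 FPKM with doxycycline. In reads these values correspond to 24, 32 and 64 without doxycycline and to 941, 2039 and 1761 with doxycycline, so the gene was detected in all 6 libraries. The ratio of the means was 32.1, and limma gave 4.43 as log2 fold change (SE 0.38, adjusted p = 0.000207). LINC01013 overlaps CTGF on the opposite strand and was listed at 0.25 to 4.35 FPKM over all libraries. This is small beside CTGF in the doxycycline-treated libraries. Its highest value is above CTGF in the untreated libraries, but which library held that value is not given here. Whether strand was used in counting is not given in the sources used here.

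CYR61 (ENSG00000142871, chromosome 1, 86046444 to 86050272, plus strand, GRCh37) encodes another secreted protein of the CCN family. It was at 2.08, 2.63 and 3.72 FPKM without doxycycline and at 27.7, 46.3 and 34.1 FPKM with doxycycline. Of the 3 target genes it varied least among the doxycycline-treated libraries. The ratio of the means was 12.8, and limma gave 3.27 as log2 fold change (SE 0.24, adjusted p = 9.51e-05). In untreated cells the mean level of CYR61, CTGF and ANKRD1 exceeded that of only 36.9%, 32.5% and 31.3% of the genes tested, whereas YAP1 and WWTR1 exceeded 84.8% and 77.9%. All 3 targets were called in each of the 14 alternative fits, with an adjusted p (limma) of at most 0.0019 for CYR61, 0.00282 for CTGF and 0.00459 for ANKRD1.

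The regulators AMOTL2, AJUBA and LATS2 were each higher in every doxycycline-treated library than in every untreated library, and none was called. AMOTL2 (ENSG00000114019, chromosome 3, 134074189 to 134094321, minus strand, GRCh37), an angiomotin-family scaffold that binds and retains YAP, was at 5.88, 7.21 and 11.1 FPKM without doxycycline and at 11.7, 18.3 and 14.4 FPKM with doxycycline. Untreated replicate 3 almost reached the lowest treated library. The log2 fold change was 0.82 (95% interval from 0.25 to 1.39, adjusted p = 0.051, limma), and limma-voom on recovered reads gave 0.98 with an adjusted p of 0.0072.

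AJUBA (ENSG00000129474, chromosome 14, 23440386 to 23451760, minus strand, GRCh37) encodes a LIM-domain protein that binds and inhibits LATS kinases. It was at 6.54, 8.30 and 6.31 FPKM without doxycycline and at 10.6, 11.6 and 11.8 FPKM with doxycycline. The treated libraries were tightly grouped, and the log2 fold change was 0.62 (95% interval from 0.23 to 1.01, adjusted p = 0.0349, limma). AJUBA is the 1 gene added to the 4 called ones when the limit of the adjusted p is set at 0.05, a limit under which 9.87% of all genes tested were higher and 9.91% were lower. With limma-voom on recovered reads, its adjusted p was 0.00985.

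LATS2 (ENSG00000150457, chromosome 13, 21547175 to 21635725, minus strand, GRCh37), the kinase that phosphorylates YAP and TAZ, was at 5.40, 6.88 and 7.97 FPKM without doxycycline and at 8.54, 11.1 and 9.44 FPKM with doxycycline. Its log2 fold change was 0.47 (95% interval from 0.04 to 0.90, adjusted p = 0.118, limma). The related kinase LATS1 had the opposite sign, with 7.10 to 9.21 FPKM in EWSR1::FLI1 high and 5.12 to 6.21 FPKM in EWSR1::FLI1 low libraries, and was not called either (log2 fold change -0.46, adjusted p = 0.0967, limma).

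**Figure D3:**
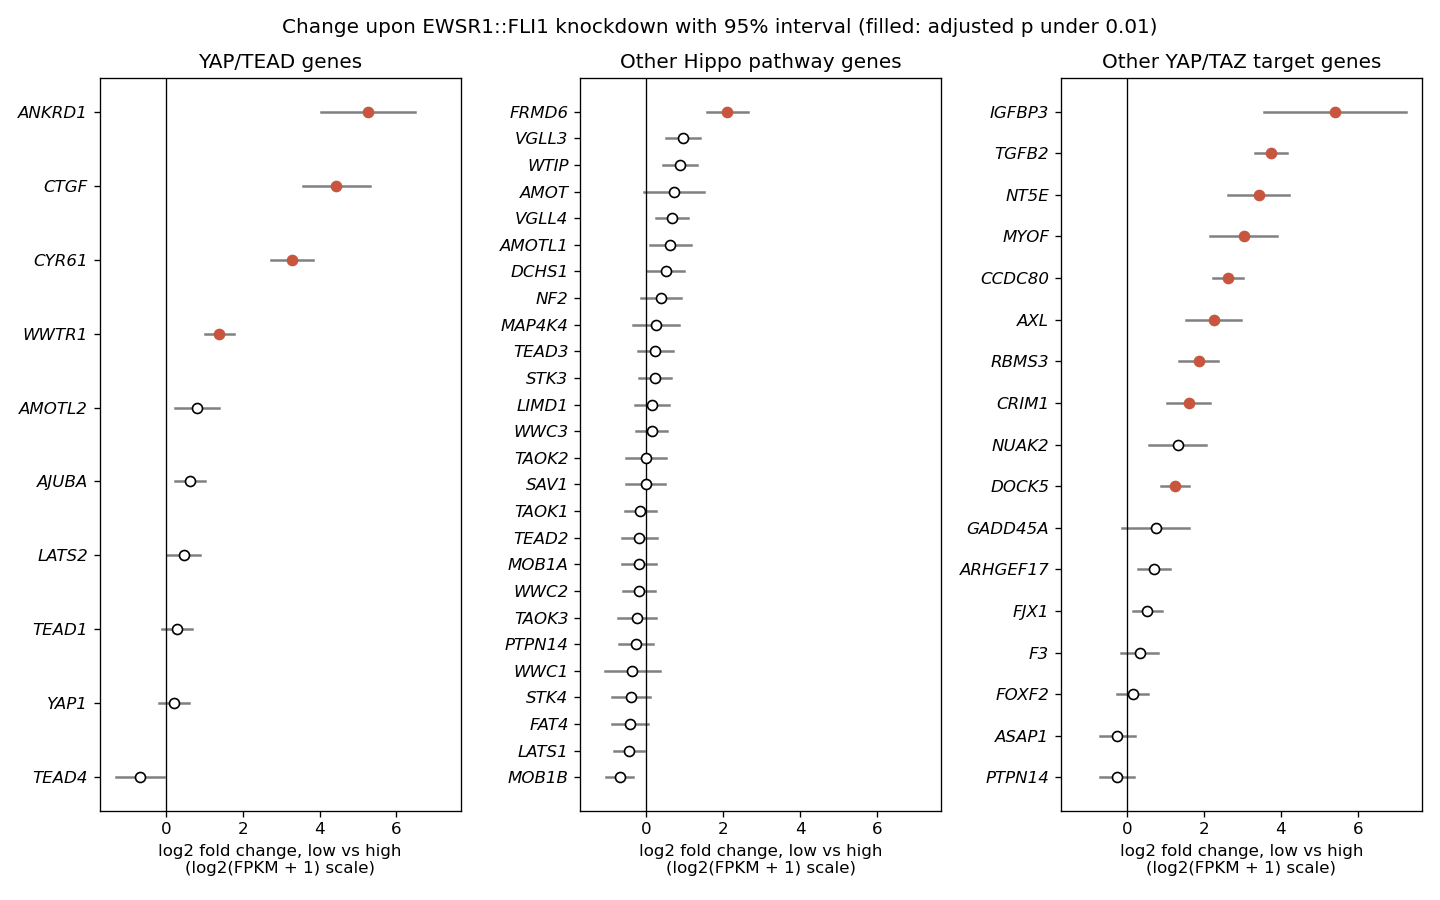
Log2 fold change of EWSR1::FLI1 low against EWSR1::FLI1 high (x axis, log2(FPKM + 1) scale) with its 95% interval for the 10 YAP/TEAD genes, the 26 other Hippo pathway genes tested and 17 other YAP/TAZ target genes, with filled points for an adjusted p under 0.01. Filled points are 4 of 10, 1 of 26 and 9 of 17, and all of them lie above 0.

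To set these genes in their pathway, a list of 28 other Hippo pathway genes was examined, of which 26 passed the filter (VGLL1 and VGLL2 did not). FRMD6, a FERM-domain protein at the cell membrane that acts upstream of the kinase cascade, was the only gene of this list that was called. It rose from 14.1, 13.9 and 20.05 FPKM without doxycycline to 55.5, 87.7 and 73.6 FPKM with doxycycline (log2 fold change 2.10, adjusted p = 0.000553, limma). Thus 1 of 26 was called higher and 0 lower, near the 4.51% and 3.37% of all genes tested, while at an unadjusted p under 0.05 6 were higher and 2 lower, beside 15.6% and 18.7% of all genes tested. With limma-voom, 5 were called higher and 1 lower, beside 8.03% and 7.39% of all genes tested. The median log2 fold change of the list was 0.06. The count of higher genes in the list was 4 without EWSR1::FLI1 low replicate 1. Over all genes tested, higher calls rose as well when this library was left out, from 700 to 1452. The list count also varied with every library kept. It was 1 with a pseudocount of 0.1, 4 with median-ratio scaling and 7 with sample quality weights. Over all genes tested, higher calls then numbered 772, 994 and 2488 in that order. The part of EWSR1::FLI1 low replicate 1 in these counts was not tested.

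The kinases upstream of LATS1/2 were not called. STK3 was at 10.8 to 11.4 FPKM in EWSR1::FLI1 high and 10.6 to 14.96 FPKM in EWSR1::FLI1 low libraries (log2 fold change 0.22, adjusted p = 0.432, limma), and STK4 was at 25.6 to 30.6 FPKM and 15.5 to 24.3 FPKM (log2 fold change -0.40, adjusted p = 0.224, limma). NF2, the membrane scaffold merlin, differed by 0.38 on the log2 scale (adjusted p = 0.275, limma). Without EWSR1::FLI1 low replicate 1 these values were 0.37 for STK3, -0.21 for STK4 and 0.58 for NF2 (adjusted p = 0.0751, 0.301 and 0.0378, limma), so none was called then either. The angiomotins AMOT and AMOTL1, relatives of AMOTL2, had log2 fold changes of 0.71 and 0.63 (adjusted p = 0.181 and 0.0904, limma), and AMOT overlapped between groups and was at 0.32 without EWSR1::FLI1 low replicate 1. At an adjusted p between 0.01 and 0.05 were VGLL3, VGLL4, WTIP and MOB1B. MOB1B, a cofactor of LATS kinases, was the 1 of these with a negative sign, with 9.06 to 10.3 FPKM in EWSR1::FLI1 high and 5.36 to 6.07 FPKM in EWSR1::FLI1 low libraries (log2 fold change -0.69, adjusted p = 0.0166, limma, and 0.00704 with limma-voom). WTIP, a LIM-domain relative of AJUBA, had 0.87 (adjusted p = 0.0153, limma). VGLL3 and VGLL4 compete with YAP and TAZ for TEAD binding. VGLL3 was at 6.32 to 8.62 FPKM in EWSR1::FLI1 high and 13.5 to 19.0 FPKM in EWSR1::FLI1 low libraries (log2 fold change 0.95, adjusted p = 0.012, limma). VGLL4 was at 12.1 to 14.1 FPKM and 18.0 to 23.5 FPKM (log2 fold change 0.67, adjusted p = 0.0338, limma). Without EWSR1::FLI1 low replicate 1 the adjusted p (limma) was 0.00461 for VGLL3, 0.0053 for VGLL4 and 0.0083 for AMOTL1.

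A second list held 17 further genes of a widely used YAP/TAZ target signature, all of which passed the filter. It too was chosen with earlier results of these data known. Of these, 9 were called higher and 0 lower, against 4.51% and 3.37% of all genes tested, while 12 were higher and 0 lower at an unadjusted p under 0.05, beside 15.6% and 18.7% of all genes tested. With limma-voom on recovered reads, 8 were called higher and 0 lower, beside 8.03% and 7.39% of all genes tested. The median log2 fold change of the list was 1.32. The largest change was that of IGFBP3, which encodes a secreted binding protein of insulin-like growth factors. It was at 0.797, 1.05 and 0.638 FPKM without doxycycline and at 14.5, 240 and 119.9 FPKM with doxycycline (log2 fold change 5.40, adjusted p = 0.00261, limma). Treated replicate 1 was over 8 times below the other treated libraries, and with limma-voom IGFBP3 was not called (adjusted p = 0.0303). Leaving that library out raised the estimate to 6.55 (adjusted p = 2.55e-05, limma).

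TGFB2, a ligand of the TGF-beta receptors, was at 0.56, 0.527 and 0.629 FPKM without doxycycline and at 25.4, 18.5 and 17.2 FPKM with doxycycline (log2 fold change 3.75, adjusted p = 1.74e-05, limma). For this gene treated replicate 1 was the highest library and not the lowest. NT5E, the ecto-5′-nucleotidase CD73, went from 19.2, 28.3 and 30.4 FPKM to 160, 428 and 335 FPKM (log2 fold change 3.43, adjusted p = 0.000383, limma). MYOF, which encodes the membrane-repair protein myoferlin, was at 3.69 to 6.999 FPKM in EWSR1::FLI1 high and 24.7 to 73.0 FPKM in EWSR1::FLI1 low libraries (log2 fold change 3.04, adjusted p = 0.00107, limma). CCDC80, which encodes a secreted matrix-associated protein, was at 4.33 to 4.52 FPKM and 27.6 to 35.5 FPKM (log2 fold change 2.62, adjusted p = 6.04e-05, limma).

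AXL, a receptor tyrosine kinase, was at 0.311 to 0.666 FPKM in EWSR1::FLI1 high and 3.05 to 9.11 FPKM in EWSR1::FLI1 low libraries (log2 fold change 2.25, adjusted p = 0.0019, limma). The other called genes of this list were RBMS3, CRIM1 and DOCK5, with log2 fold changes of 1.86, 1.603 and 1.24. F3, the coagulation initiator tissue factor, is also a member of the signature and was not called, with 16.4 to 21.8 FPKM and 18.8 to 29.2 FPKM (log2 fold change 0.33, 95% interval from -0.16 to 0.82, adjusted p = 0.317, limma). Of the 8 genes that were not called, 6 had a positive log2 fold change, among them NUAK2 with 1.32 and ARHGEF17 with 0.70 (adjusted p = 0.0231 and 0.0265, limma), and 2, ASAP1 and PTPN14, had -0.25 and -0.26 (adjusted p = 0.424 and 0.387, limma). NUAK2 passed the limit without EWSR1::FLI1 low replicate 1 (1.62, adjusted p = 0.00665, limma). The number of called genes of this list was 5 without EWSR1::FLI1 high replicate 2 and also 5 without EWSR1::FLI1 high replicate 3. Calls of higher genes fell over all genes tested as well, from 700 in the reported fit to 287 and 322.

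**Figure D4:**
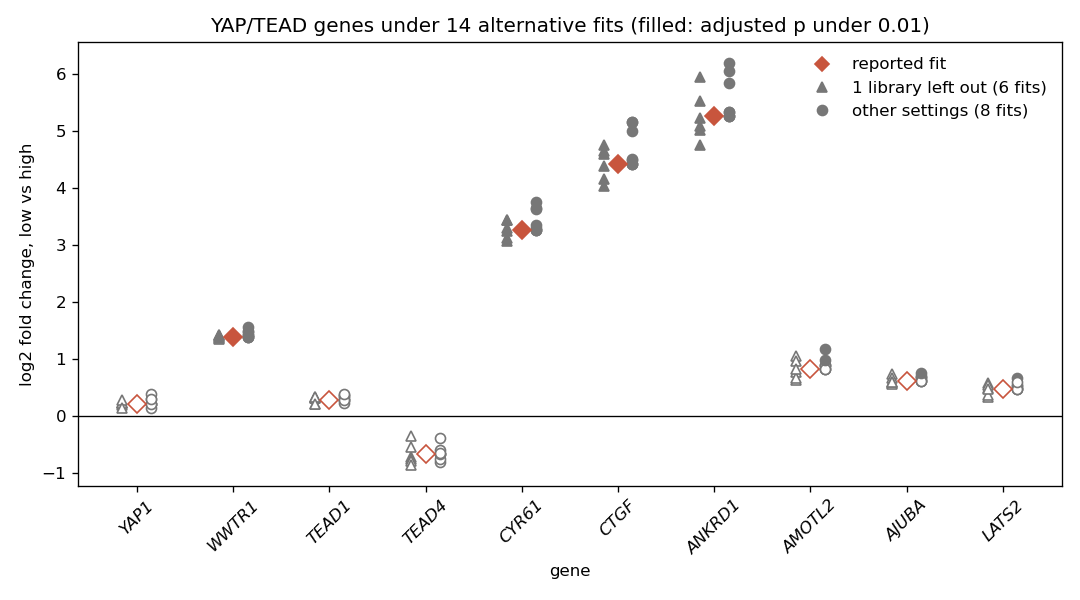
Log2 fold change of the 10 genes (y axis) in the reported fit (diamonds), in 6 fits that each leave out 1 library (triangles) and in 8 other settings (circles), with filled symbols for an adjusted p under 0.01. CYR61, CTGF and ANKRD1 are filled in all 14 alternatives, WWTR1 in 13, AMOTL2 and AJUBA in 2 each and LATS2 in 1, and no gene changes sign.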

How the data were processed

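RNAseq of 6 libraries was analysed. Paired-end reads were aligned to GRCh37 with STAR by the authors, and STAR 2.5.0b, bedtools 2.17.0, Cufflinks 2.2.1 and DESeq2 1.6.3 are named in the submitters' processing notes. Expression was deposited by the authors as FPKM for each symbol in each library, without pooling replicates. From a second deposited table, with the comparison made by the authors, only the mean signal per gene (mean normalized count) was taken. Its fold changes and p-values were not used. Reads were recovered from FPKM with this mean (100% of values above 0 were whole within 0.1 reads).

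Genes with a mean of at least 0.5 FPKM (15504) were tested with limma 3.58.1 in R 4.3.3 (eBayes with trend) on log2(FPKM + 1), with Benjamini-Hochberg adjustment, after tests on simulated data. The limit of 0.01 was also used in the study, there with DESeq2 and with a limit on the log2 fold change that was not applied here. Members and lists were chosen with earlier results of these data known. The Hippo list and the target list share PTPN14. Named are the 10 members, FLI1, EWSR1 and NR0B1, the set genes of both lists described and up to 5 called genes per list and direction with the largest change. RBMS3, CRIM1, DOCK5, ASAP1, MOB1B, WTIP and the other genes outside this rule were named after their values were seen. The chi-square per degree of freedom between replicates was 4.25 to 6.27 in EWSR1::FLI1 high and 20.2 to 31.5 in EWSR1::FLI1 low. No pair was therefore the same library, and the low replicates differed more from each other. Motifs were searched with Python 3.11.15.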

Additional observations from a re-analysis of the deposited data

How the results depend on the processing

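Over 14 alternative fits each (a pseudocount of 0.1, no filter, a mean of at least 1 FPKM, median-ratio scaling, quantile normalization, sample quality weights, a replicate block, limma-voom on recovered reads, and each library left out), 403 of 434 values of the 31 named genes kept their direction and their side of the limit, 22 passed the limit only in the alternative, 9 passed it only in the reported fit, and none changed direction. Called higher among the 10 YAP/TEAD genes were 7 with sample quality weights. With these weights 2488 of the 15504 genes tested were called higher, against 700 in the reported fit. Among the other Hippo genes, 1 was called higher in the reported fit, 2 with a mean of at least 1 FPKM, 4 with median-ratio scaling, 4 with quantile normalization, 7 with sample quality weights, 5 with limma-voom, 4 at an adjusted p under 0.05, and 1 to 4 when 1 library was left out. In this list 1 gene was called lower with quantile normalization, with sample quality weights, with limma-voom and at an adjusted p under 0.05. Over all genes tested, calls of lower genes numbered 1000, 2257, 1146 and 1537 in that order, against 522 in the reported fit. Of the other target genes, 5 to 10 were called when 1 library was left out. AXL lost its call without EWSR1::FLI1 high replicate 2 or 3 (adjusted p = 0.011 and 0.0109), and IGFBP3 without EWSR1::FLI1 high replicate 2 or 3 or EWSR1::FLI1 low replicate 3 (adjusted p up to 0.0172). NR0B1 lost its call without EWSR1::FLI1 high replicate 2 or 3. The difference in TEAD2 share, -4.00 percentage points, was -1.62 with quantile normalization. The cause was not tested in any of these cases.

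With the replicate block, 4 of the 10 genes, 2 other Hippo genes and 9 other target genes were called higher. Over all genes tested this number was 916, against 700 in the reported fit. The deviations of same-numbered libraries correlated across genes with r = 0.27, 0.09 and 0.12, so not every pair exceeded 0.1 and pairing was not established, although the titles number experiments in both groups. Over all genes, 1222 were called in the reported fit, from 444 to 2178 when 1 library was left out, 1702 with the replicate block, 2391 with limma-voom and 4745 with sample quality weights. Reads were at least 21 per library for every YAP/TEAD gene.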

Other observations

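An order of the libraries shared by 5 genes was noticed after their values were seen. In the FPKM values as deposited, CYR61, CTGF, ANKRD1, AMOTL2 and LATS2 were each lowest in replicate 1 and highest in replicate 3 among EWSR1::FLI1 high libraries, and lowest in replicate 1 and highest in replicate 2 among EWSR1::FLI1 low libraries. This order was found in 1239 of the 15504 genes tested (7.99%). After median-ratio scaling 1 of the 5 genes kept it, and after quantile normalization 1 of the 5 did, so it depends on how the libraries are scaled. The coactivators did not have it. YAP1 was lowest in replicate 2 in both conditions, and WWTR1 was lowest in replicate 2 without doxycycline and in replicate 1 with doxycycline.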
